A study of Mus musculus with 4 samples.

Results

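The genes described here encode the enzymes of the tricarboxylic acid (TCA) cycle and of pyruvate oxidation in mouse brown adipose tissue (BAT). They were the 32 genes of a list fixed by name, all of which were found among the 17259 genes of the deposited table. By function they cover pyruvate entry and the pyruvate dehydrogenase (PDH) complex, the kinases and phosphatases of that complex, the enzymes of the cycle itself, and the enzymes that exchange malate and aspartate with the cytosol. RNA sequencing had been done on 4 libraries of wild-type (WT) mice, 2 of isolated mitochondria (BAT-Mito) and 2 called BAT-total. The treatment label of BAT-total names the tissue without its mitochondria, whereas the study's supplement speaks of total lysates, and the sources used here do not settle whether mitochondria were removed from it. The labels name no agent for either group, and age and number of animals are not given in the sources used here. As nothing says that replicates came from separate animals, p-values measure the spread between these libraries, which may be technical. According to the methods, mitochondria were enriched by differential centrifugation and, for RNA, treated with digitonin and RNase A, which is described for the heart.

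Pyruvate made by glycolysis enters mitochondria through the mitochondrial pyruvate carrier and is oxidised to acetyl-CoA by the PDH complex, or carboxylated to oxaloacetate. PDH kinases switch the complex off by phosphorylation and PDH phosphatases switch it on again. The TCA cycle oxidises acetyl-CoA, and its NADH and succinate feed the respiratory chain, which in brown fat is uncoupled by UCP1 so that the energy is released as heat. All proteins of the list are encoded in the nucleus and translated from mRNA outside the mitochondrial matrix. MDH1 and GOT1 stay in the cytosol, and the others are imported into mitochondria.

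The BAT-Mito libraries differed in their marker genes. Values are normalised counts, i.e. gene counts divided by a size factor per library. A read counted for 8.32 units in the first BAT-Mito library and for 6.90 units in the second, and reads behind the BAT-total values are unknown. Of the reads, 49420 in BAT-Mito replicate 1 and 58238 in replicate 2 lay in protein-coding genes outside the mitochondrial chromosome, and 580 and 2085 of these came from the members. Ucp1, the first marker of brown adipocytes, stood at 1290 and 3554 in BAT-Mito and at 4819 and 4185 in BAT-total. Alb, the albumin gene of the liver, stood at 4943 and 393 in BAT-Mito and at 97 and 3 in BAT-total. All 14 liver markers were listed above 0 in both BAT-Mito libraries and together took 3.99% and 0.374% of the nuclear protein-coding signal, against 0.0658% and 0.0254% in BAT-total. The 10 skeletal muscle markers, Acta1 first, took 0.878% and 0.295% in BAT-Mito and 0.0538% and 0.118% in BAT-total. Both heart markers in the table, Myh6 and Actc1, took 0.0506% and 0.161% in BAT-Mito, and Myh6 was listed at 2 and 0 in BAT-total. Endothelial markers took less in BAT-Mito, with 0.0224% and 0.00174% against 0.137% and 0.150%. This rests on 11 and 1 reads, with 1 of 5 markers at 0 in replicate 1 and 4 of 5 in replicate 2. The 12 brown adipocyte markers took 0.729% and 2.06% in BAT-Mito and 2.19% and 1.99% in BAT-total. Of the other lists, adipocyte markers, Lep first, took 0.269% and 0.511% in BAT-Mito and 0.757% and 0.663% in BAT-total, blood markers 0.0608% and 0.158% against 0.0459% and 0.0986%, and macrophage markers 0.0688% and 0.0648% against 0.0113% and 0.0118%. The part of these other tissues in the results below was not tested. In bulk RNA, fewer cells of a type and less RNA per cell cannot be told apart.

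**Figure D1:**
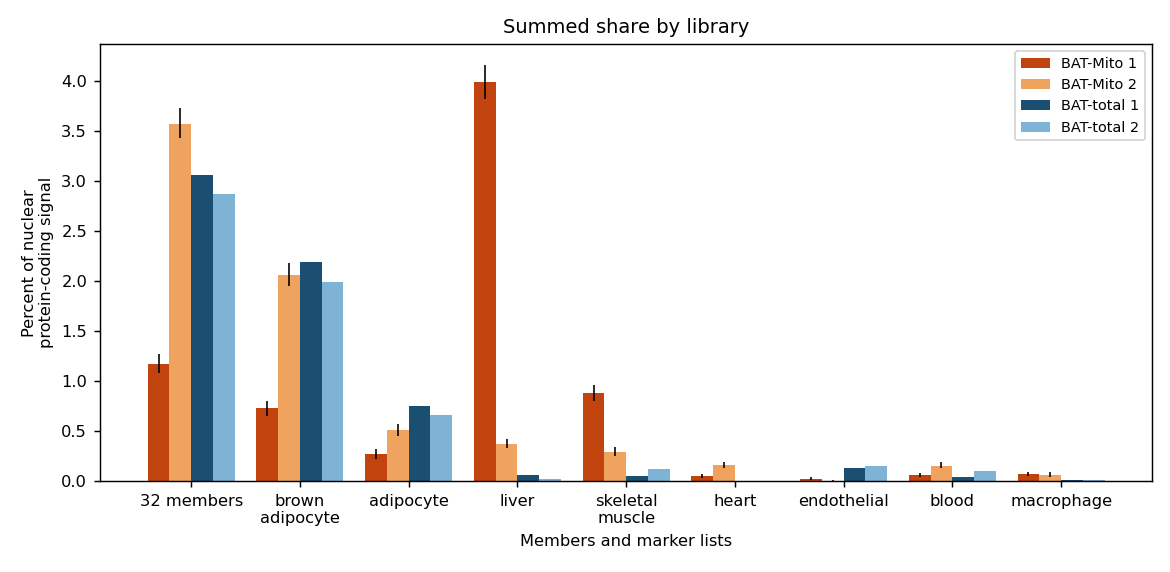
Summed share of the nuclear protein-coding signal (percent, linear axis from 0) of the 32 members and of 8 marker lists in each of the 4 libraries, with 95% Wilson intervals on the BAT-Mito bars. The members and the brown adipocyte markers are lowest in BAT-Mito replicate 1, where the liver and skeletal muscle markers are highest.

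The first question was whether mRNAs of these mitochondrial enzymes took a larger or smaller share of the RNA that came with mitochondria. Together the 32 members took 1.17% of the nuclear protein-coding signal in BAT-Mito replicate 1 (95% Wilson interval 1.08 to 1.27%) and 3.57% in replicate 2 (3.43 to 3.73%). They took 3.06% and 2.87% in BAT-total replicates 1 and 2. BAT-Mito replicate 1 thus lay below both BAT-total libraries and replicate 2 above both. This depends on the denominator. Of all genes outside the mitochondrial chromosome, non-coding ones included, the members took 0.0465% and 0.185% in BAT-Mito and 2.54% and 2.35% in BAT-total. Both BAT-Mito libraries lay below both BAT-total libraries there (2-sided exact permutation test, p = 0.333). Protein-coding genes held 411200 of 10391663 and 402796 of 7796057 of these units in BAT-Mito, and 644444 of 778223 and 633173 of 775887 in BAT-total. Any set of protein-coding genes thus tends to be lower in BAT-Mito on this denominator, and the separation says nothing particular of the members. Of the nuclear protein-coding signal, the means were 2.37% ± 1.70 in BAT-Mito and 2.97% ± 0.135 in BAT-total (SD, n = 2 each). Their difference of -0.597 percentage points was smaller than the spread within BAT-Mito (2-sided exact permutation test, p = 1.0, where 0.333 is the smallest p that 2 against 2 libraries allow). Without BAT-Mito replicate 1 the difference was 0.603 percentage points, and without replicate 2 it was -1.80. Wilson intervals cover counting error only.

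Gene by gene, 0 of 32 members were higher and 0 were lower in BAT-Mito (limma on log2 of the normalised count plus 1, Benjamini-Hochberg adjusted p under 0.05). Of all 8215 genes tested, 0.803% were higher and 4.41% were lower. With edgeR and with DESeq2 on reads, 0 members were called as well. Of all genes, edgeR called 252 (3.07%) higher and 49 (0.596%) lower and DESeq2 called 253 (3.08%) higher and 22 (0.268%) lower, where limma called 66 and 362. The unadjusted p was under 0.05 for 1 member, Pcx, and for at least all genes that limma called. The median log2 fold change of the members was -1.17, beside -1.23 over all genes tested, and 19 of the 32 members lay above the latter. The log2 fold change was negative for 31 members, all but Got2. As the median of all genes was negative too, so were most genes tested, and this count is not particular to the members. The shift of all genes depends on the scaling, and on scaling the libraries to equal totals of nuclear protein-coding genes the medians were -0.52 for the members and -0.63 for all genes. The side of the members turned with other settings. Their median was -1.12 against -0.73 with a pseudocount of 10 (7 members above), -1.18 against -0.96 among genes with a mean of at least 50 (8 of 29 members above), -0.36 against -0.23 by edgeR and -0.25 against -0.10 by DESeq2 (12 members above in each). The library left out decided the side, with -0.34 against -0.92 without BAT-Mito replicate 1 (24 members above) and -1.94 against -1.05 without replicate 2 (5 members above). Without BAT-Mito replicate 1 limma called 6 members and 41.1% of all genes lower, and without replicate 2 it called 28 members and 47.0% of all genes lower. In these fits 0 members were higher, beside 5.68% and 7.57% of all genes. When all genes with any count were tested, 1 member was lower and 0 were higher, beside 20.8% and 0.829% of all genes. Got1 was among the 6 members called without BAT-Mito replicate 1, where its only BAT-Mito value is 0. The fits without a BAT-Mito library assume that a lone BAT-Mito library varies like BAT-total.

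**Figure D2:**
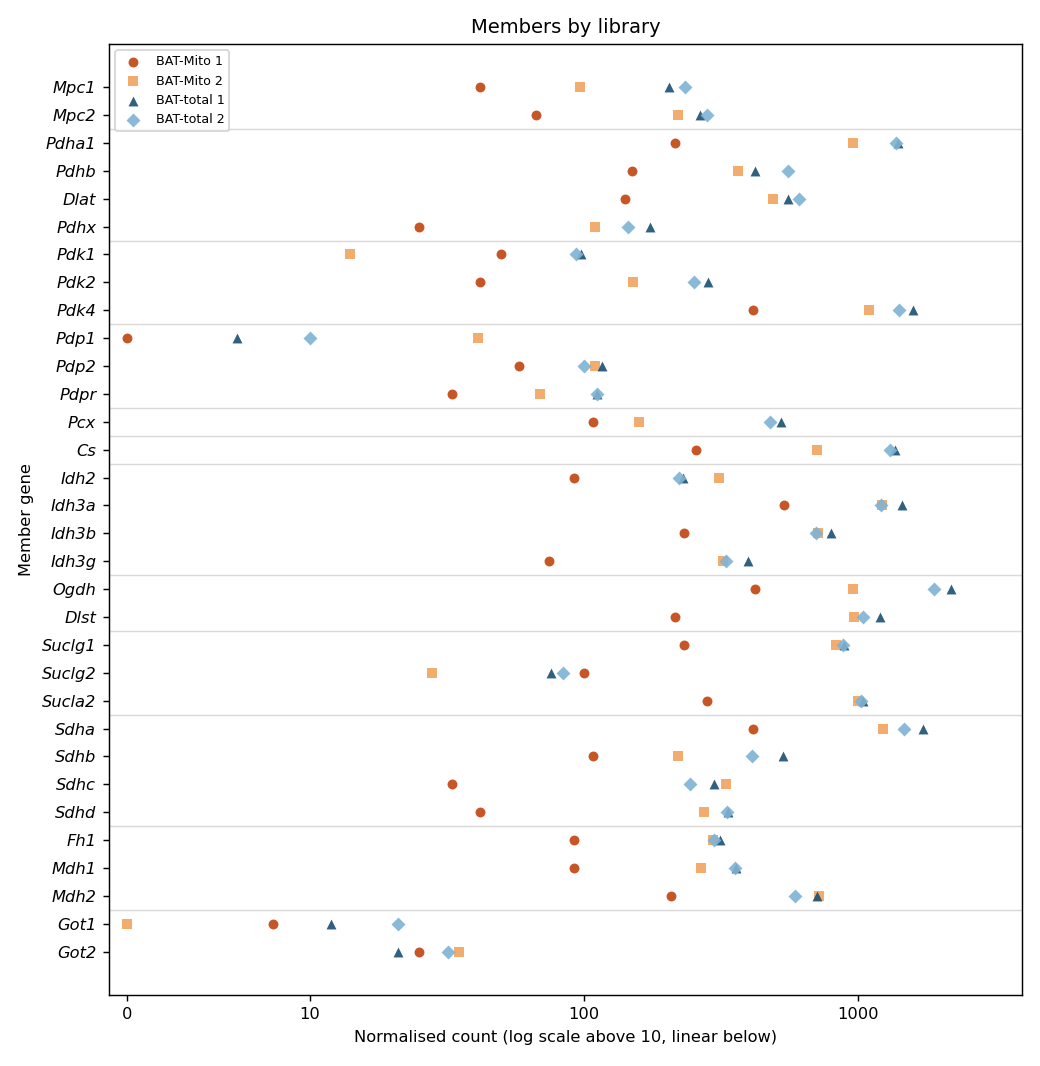
Normalised count of each member (linear up to 10, log scale above) in the 4 libraries, with members ordered by function and lines between the groups. For most members BAT-Mito replicate 1 lies far to the left and BAT-Mito replicate 2 close to BAT-total, whereas Pdk1 and Suclg2 are lower in replicate 2.

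As deposited, both BAT-Mito libraries lay below both BAT-total libraries for 23 of the 32 members, and above both for 0. Over all genes tested the shares were 52.1% below and 8.59% above. The 23 include Got1, whose 1 and 0 reads in BAT-Mito lie under the floor of 3 reads (25.0 and 20.7 units) beside 12 and 21 units in BAT-total. The 9 members whose groups overlapped were Pdp1, Pdp2, Idh2, Idh3a, Idh3b, Suclg2, Sdhc, Mdh2 and Got2.

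The pyruvate carrier is a heterodimer of MPC1 and MPC2 in the inner membrane. Mpc1 stood at 42 and 97 in BAT-Mito replicates 1 and 2 and at 205 and 234 in BAT-total. Mpc2 stood at 67 and 221 in BAT-Mito and at 267 and 281 in BAT-total. Neither gene overlapped between the groups, and Mpc1 had the larger log2 difference (-1.76 ± 0.62 SE, limma adjusted p = 0.282). Counting for Mpc1 is uncertain, since 24.8% of the windows of read length (75 bases) in its mRNA occur unchanged in other genes, mainly the pseudogene Mpc1-ps, and reads with several positions were left out by the authors. The same holds for 35.2% of the windows of Got2, 19.9% of Pdhb, 16.0% of Suclg2 and, through an overlapping gene, 13.9% of Pdha1.

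The PDH complex joins the decarboxylase subunits PDHA1 and PDHB, the acetyltransferase DLAT and the binding protein PDHX. Pdha1 stood at 216 and 966 in BAT-Mito and at 1402 and 1381 in BAT-total. Pdhb was at 150 and 366 against 424 and 556. Dlat was at 141 and 490 against 557 and 613. All of these were lowest in BAT-Mito replicate 1 and did not overlap between the groups. Pdhx, the least abundant subunit, was at 25 and 110 against 175 and 145, where 25 units are 3 reads. Per kb of exon the ratio of Pdha1 to Pdhx was 9.09 and 9.24 in BAT-Mito and 8.43 and 10.0 in BAT-total. That of Pdha1 to Dlat was 2.0 and 2.58 against 3.29 and 2.95, and that of Pdha1 to Pdhb was 1.49 and 2.73 against 3.42 and 2.57. The complex as a whole took 0.129% and 0.480% of the nuclear protein-coding signal in BAT-Mito, and 0.397% and 0.426% in BAT-total.

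Among the PDH kinases, Pdk4, which is induced by fasting and fatty acids, was by far the most abundant. It stood at 416 and 1104 in BAT-Mito and at 1595 and 1421 in BAT-total. Pdk2, the broadly expressed kinase, was at 42 and 152 against 285 and 252. Per kb of exon Pdk4 exceeded Pdk2 by 5.04 and 5.08 times in BAT-total and by 8.92 and 6.54 times in BAT-Mito. Pdk1, the hypoxia-inducible kinase, was at 50 and 14 against 98 and 94, which rests on 6 and 2 reads in BAT-Mito. Unlike Pdk4 and Pdk2, it was not higher in BAT-Mito replicate 2 than in replicate 1. Of the phosphatases, Pdp1, a catalytic subunit, was at 0 and 41 (0 and 6 reads) in BAT-Mito and at 6 and 10 in BAT-total. In BAT-Mito replicate 1 the limit that a count of 0 allows is 25.0 units, which is above both BAT-total values. Pdp2, the other catalytic subunit, was at 58 and 110 against 117 and 100. Pdpr, the regulatory subunit, was at 33 and 69 against 112 and 112. Only for Pdpr among the 3 did the groups not overlap.

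Pcx encodes pyruvate carboxylase, which refills the cycle with oxaloacetate. It stood at 108 and 159 in BAT-Mito (13 and 23 reads) and at 527 and 478 in BAT-total. The BAT-Mito libraries lay closer together here than for most members, and both were well below BAT-total. The ratio of replicate 2 to replicate 1 was 1.47, with an exact interval from the reads of 0.713 to 3.15. This interval just includes 3.14, the median ratio of the 28 members with at least 10 reads in both libraries together. The closeness of the Pcx values is therefore not told apart from counting error. Pcx had the lowest p of the list, with a log2 difference of -1.93 ± 0.46 SE (unadjusted p = 0.0196, limma adjusted p = 0.200). Over all genes with any count, the adjusted p was 0.0415. By edgeR the log2 difference was -1.33 (adjusted p = 0.209). Over all alternatives the log2 difference of Pcx ran from -1.20 to -2.21 and the adjusted p from 0.0187 without BAT-Mito replicate 2 to 0.844 without BAT-total replicate 1. Its share of nuclear protein-coding signal was 0.0263% and 0.0395% in BAT-Mito and 0.0818% and 0.0755% in BAT-total.

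Cs encodes citrate synthase, which condenses acetyl-CoA with oxaloacetate. It was at 258 and 711 in BAT-Mito and at 1369 and 1319 in BAT-total, without overlap (log2 difference -1.65 ± 0.69 SE, limma adjusted p = 0.314). IDH3A is the catalytic and IDH3B and IDH3G are the regulatory subunits of the NAD-dependent enzyme. Idh3a stood at 541 and 1228 in BAT-Mito and at 1450 and 1221 in BAT-total. Idh3b was at 233 and 718 against 798 and 708. Idh3g was at 75 and 324 against 397 and 332. In all 3 genes BAT-Mito replicate 2 came close to BAT-total, and replicate 1 lay well below. Idh2, the NADP-dependent mitochondrial enzyme, was at 92 and 311 against 231 and 223, so that BAT-Mito replicate 2 exceeded both BAT-total libraries. Together the 4 genes took 0.641% of the nuclear protein-coding signal in BAT-Mito replicate 2, 0.229% in replicate 1, and 0.446% and 0.392% in BAT-total.

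OGDH and DLST are the decarboxylase and the succinyltransferase of the 2-oxoglutarate dehydrogenase complex. Ogdh had the highest normalised count of the list in BAT-total, at 2202 and 1905, with 424 and 966 in BAT-Mito. Its log2 difference was -1.68 ± 0.62 SE (limma adjusted p = 0.291). Dlst was at 216 and 973 in BAT-Mito and at 1203 and 1049 in BAT-total. The ratio of Ogdh to Dlst per kb of exon was 3.21 and 3.18 in BAT-total, 3.44 in BAT-Mito replicate 1 and 1.74 in replicate 2.

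Succinate-CoA ligase pairs SUCLG1 with SUCLA2, which makes ATP, or with SUCLG2, which makes GTP. Suclg1 stood at 233 and 835 in BAT-Mito and at 895 and 886 in BAT-total. Sucla2 was at 283 and 1001 against 1045 and 1027. Suclg2 was at 100 and 28 against 76 and 84. Sucla2 and Suclg1 were higher in BAT-Mito replicate 2 than in replicate 1, and Suclg2 was lower. Per kb of exon Sucla2 exceeded Suclg2 by 15.9 and 14.2 times in BAT-total, by 3.28 times in BAT-Mito replicate 1 and by 41.4 times in replicate 2. The ratio of Suclg1 to Sucla2 stayed between 0.711 and 0.745 in the 4 libraries. The value of Suclg2 in BAT-Mito rests on 12 and 4 reads.

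Succinate dehydrogenase, which is also complex II of the respiratory chain, consists of the flavoprotein SDHA, the iron-sulfur subunit SDHB and the membrane anchors SDHC and SDHD. Sdha stood at 416 and 1242 in BAT-Mito and at 1730 and 1480 in BAT-total. Sdhb was at 108 and 221 against 534 and 412. Among the subunits the anchors had the highest ratio of BAT-Mito replicate 2 to replicate 1, 9.95 for Sdhc and 6.63 for Sdhd. Sdhc was at 33 and 331 against 299 and 245, and Sdhd at 42 and 276 against 337 and 334. These low values in replicate 1 rest on 4 reads of Sdhc and 5 of Sdhd. Sdhc overlapped between the groups, and the other 3 subunits did not. The 4 subunits took 0.146% and 0.514% of the nuclear protein-coding signal in BAT-Mito, and 0.450% and 0.39% in BAT-total.

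Promoter letters were looked up because many genes of oxidative metabolism carry motifs of the nuclear respiratory factor NRF1 or of estrogen-related receptors. RefSeq windows (GRCm38.p6) were matched for 29 of the 32 members, and the 250 bases before each start were searched on both strands. The NRF1 letters (GCGCA, any base, then GCGC) occurred before 3 members (10.3%), Sdha, Sdhd and Sucla2, and before 4.23% of all 27025 genes. The receptor letters TNAAGGTCA occurred before 0 members and 1.3% of all genes, and their core AAGGTCA, which the longer motif contains, before 1 member, Got1 (3.45%), and 4.70% of all genes. The NRF1 matches are shown in capitals with 10 bases on either side, on the strand of the gene (the Sucla2 match reads as these letters on the opposite strand), as these are the genes of succinate metabolism discussed above.
Sdhd, chr9:50603909-50603938, minus strand, match from 79 bases before the RefSeq start: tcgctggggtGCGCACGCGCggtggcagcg
Sdha, chr13:74350319-74350348, minus strand, 98 bases before the RefSeq start: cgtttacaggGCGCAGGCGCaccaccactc
Sdha, chr13:74350276-74350305, minus strand, 55 bases before the RefSeq start: ggggcgtgttGCGCAGGCGCagaatcttcc
Sdha, chr13:74350231-74350260, minus strand, 10 bases before the RefSeq start: gcgactcggtGCGCAAGCGCagtctgtcgc
Sucla2, chr14:73552759-73552788, plus strand, 17 bases before the RefSeq start: ctgcgtctctGCGCCTGCGCggtgcccagg
The RefSeq starts differ from the gene starts of the deposited table, so that the Sucla2 stretch, the Sdha stretch 10 bases before the RefSeq start and part of the Sdha stretch 55 bases before it lie inside the gene as counted (the table has Sucla2 from 73525319 and Sdha to 74350280). A match describes letters in the window, and binding was not measured.

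Fumarase and the malate dehydrogenases close the cycle. Fh1, fumarase, stood at 92 and 297 in BAT-Mito and at 315 and 298 in BAT-total. Mdh2, the mitochondrial malate dehydrogenase, was at 208 and 725 against 709 and 593, with BAT-Mito replicate 2 above both BAT-total libraries. Mdh1, whose protein is cytosolic, was at 92 and 269 against 359 and 356. The ratio of Mdh2 to Mdh1 per kb of exon was 1.63 and 1.94 in BAT-Mito and 1.42 and 1.20 in BAT-total. The aspartate aminotransferases, partners of the malate dehydrogenases in the malate-aspartate shuttle, were near the lower limit. Got1, the cytosolic form, was at 8 and 0 (1 and 0 reads) in BAT-Mito and at 12 and 21 in BAT-total. Got2, the mitochondrial form, was at 25 and 35 (3 and 5 reads) against 21 and 32. At 1 and 0 reads a difference of Got1 was not detectable, and the low level of Got2 is uncertain because of its copies.

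Per kb of exon, the members spanned from 1.78 to 430 normalised counts in BAT-total. Pdk4 (430 ± 35), Sdha (389 ± 42.8), Ogdh (376 ± 38.5) and Pdha1 (373 ± 3.98, SD, n = 2 each) came first, and neighbours among them overlapped between the libraries. A gap separated Pdha1 from Sdhd (273 ± 1.72), which was followed by Idh3a (263 ± 31.9) and Sucla2 (260 ± 3.19). From Cs (233 ± 6.12) to Mdh2 (183 ± 23.0), and from Mdh1 (139 ± 0.826) to Mpc1 (105 ± 9.85), each gene overlapped with the next. Pdpr, Pdp2, Suclg2 and Pdk1 lay between 22.3 and 12.3, and Got1, Got2 and Pdp1 came last at 6.50, 5.49 and 1.78. Of the protein-coding genes tested, 99.7% had a lower level per kb than Pdk4, 96.5% a lower level than Sdhc, and 8.03% a lower level than Pdp1. The lengths are those of all annotated exons, which may exceed the transcript used in the tissue.

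**Figure D3:**
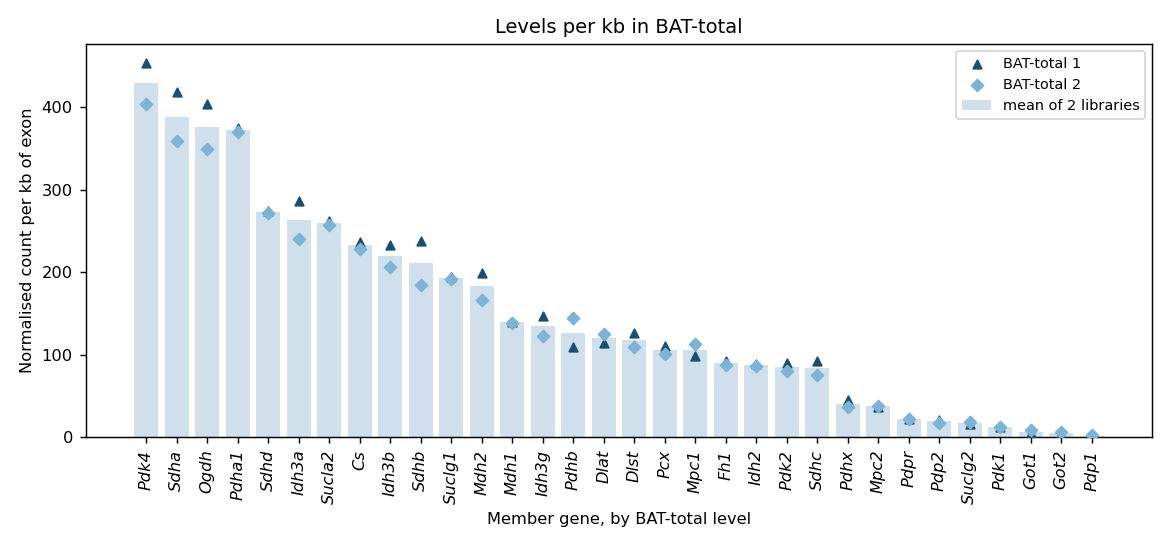
Normalised count per kb of exon of each member in BAT-total (linear axis from 0), with a bar for the mean and a point for each of the 2 libraries. Pdk4, Sdha, Ogdh and Pdha1 lie between 349 and 454 in both libraries, and Got1, Got2 and Pdp1 stay below 10.

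Most members had a higher value in BAT-Mito replicate 2 than in replicate 1 (29 of 32). With at least 10 reads in both libraries together, the share was 96.4% of 28 members and 57.6% of 2413 other protein-coding genes. It was all of the 9 brown adipocyte markers that reached this limit, whose median ratio was 2.75. The rest of the 12 brown adipocyte markers had few reads and were lower in replicate 2, with Dio2 at 25 and 21, Elovl3 at 25 and 14 and Adrb3 at 25 and 0. Of the 30 members with reads in both, the ratio of replicate 2 to replicate 1 had an exact 95% interval above 1 for 23, below 1 for 1 and including 1 for 6. These intervals compare the libraries, not conditions, and cover counting error only, since amplified reads are not independent molecules. The counts of intervals are therefore a description. Sdhc had the highest ratio, 9.95 (3.64 to 38.0), and the narrowest intervals were among those of Idh3a (2.27, 1.70 to 3.07), Pdk4 (2.65, 1.92 to 3.72) and Sdha (2.99, 2.17 to 4.17). Suclg2 (0.276, 0.0650 to 0.912) and Pdk1 (0.276, 0.0273 to 1.55) were the exceptions with reads in both. The median ratio was 3.14 over those 28 members and 1.24 over the 2413 other genes. The ratio of Ucp1 was 2.76 (2.30 to 3.32) and that of Alb 0.0796 (0.0595 to 0.105). In BAT-total the ratio of replicate 2 to replicate 1 had a median of 0.927 over the same 28 members, between 0.772 and 1.31. Whether the liver and muscle RNA of BAT-Mito replicate 1 took part in the low member values was not tested. With muscle, heart and liver markers left out of the denominator, the difference of the summed share between groups was -0.555 percentage points. This takes out the listed genes only and leaves the other RNA of these tissues in, so it does not answer that question.

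**Figure D4:**
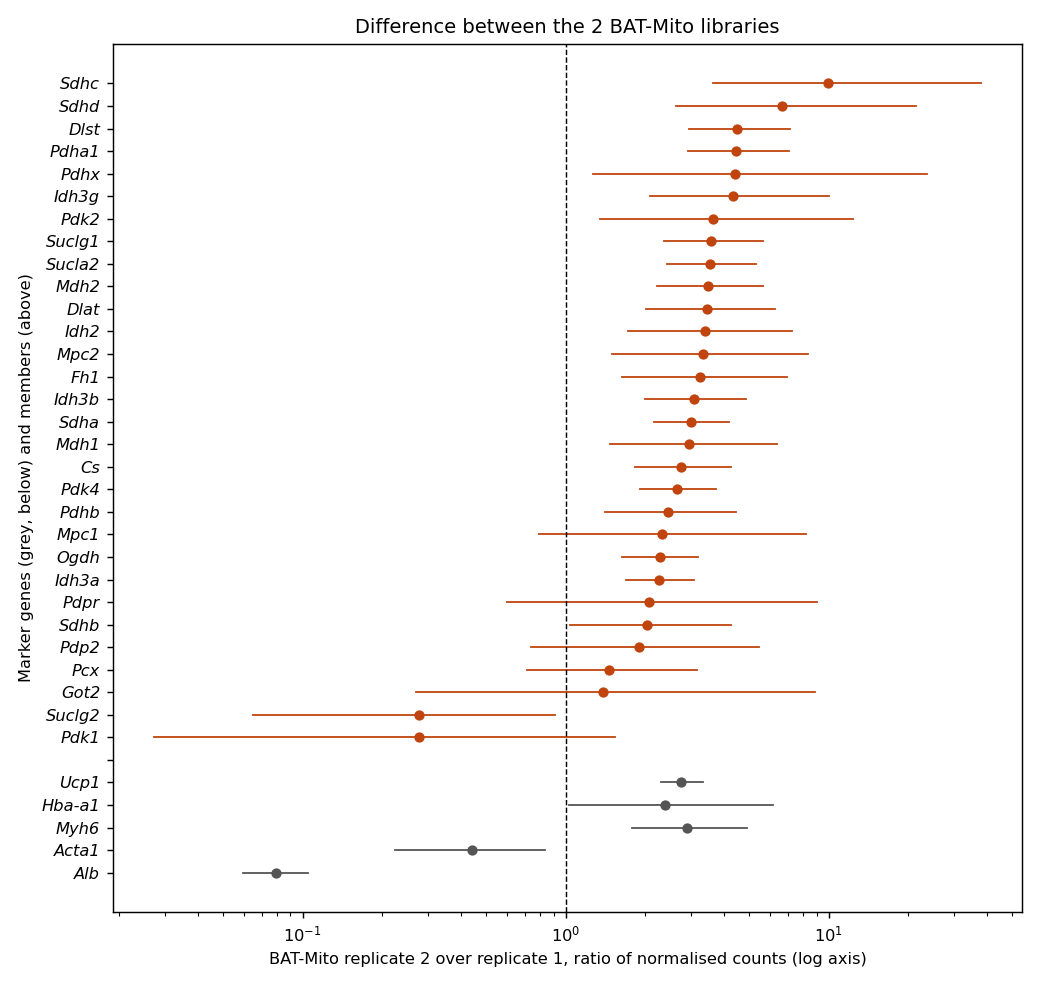
Ratio of the normalised count in BAT-Mito replicate 2 to that in replicate 1 (log axis) with exact 95% intervals from the reads, for the 30 members with reads in both libraries and for 5 marker genes in grey. Most members lie between 2 and 5, as does Ucp1, while Suclg2, Pdk1, Acta1 and Alb lie below 1.

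To compare the mix of members apart from their sum, each value was expressed as a percentage of the members' sum in its library, a view added after the data had been seen. The order of the members in BAT-Mito resembled that in BAT-total, with a Spearman rho across the 32 genes of 0.912 for replicate 1 and 0.931 for replicate 2, beside 0.994 between the BAT-total libraries. Genes are not independent replicates, and the points share library and depth. On this scale 8 members were lower in both BAT-Mito libraries than in both BAT-total libraries, 8 were higher and 16 overlapped. Over all genes tested and scaled in this way, 19.3% were lower and 22.5% higher. The lower members were Mpc1, Pdha1, Pdhx, Pdk2, Pcx, Cs, Ogdh and Sdhb. The higher members were Pdp2, Idh2, Idh3a, Idh3b, Sucla2, Fh1, Mdh2 and Got2. Idh3a made up 11.2% (8.89 to 14.0%) and 8.53% (7.41 to 9.81%) of the members' sum in BAT-Mito, against 7.34% and 6.71% in BAT-total. Ogdh made up 8.78% (6.75 to 11.4%) and 6.71% (5.72 to 7.87%), against 11.1% and 10.5%. Cs made up 5.34% (3.79 to 7.49%) and 4.94% (4.09 to 5.96%), against 6.93% and 7.25%. Of the lower and higher members, only Idh3a lay beyond the Wilson intervals of both BAT-Mito libraries. For each of the others, the interval of at least 1 BAT-Mito library held a BAT-total value. Their side is therefore not told apart from counting error. Across 28 members the ratio of these shares between groups had a Spearman rho of 0.0865 with exon length and of -0.129 with the BAT-total value.

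**Figure D5:**
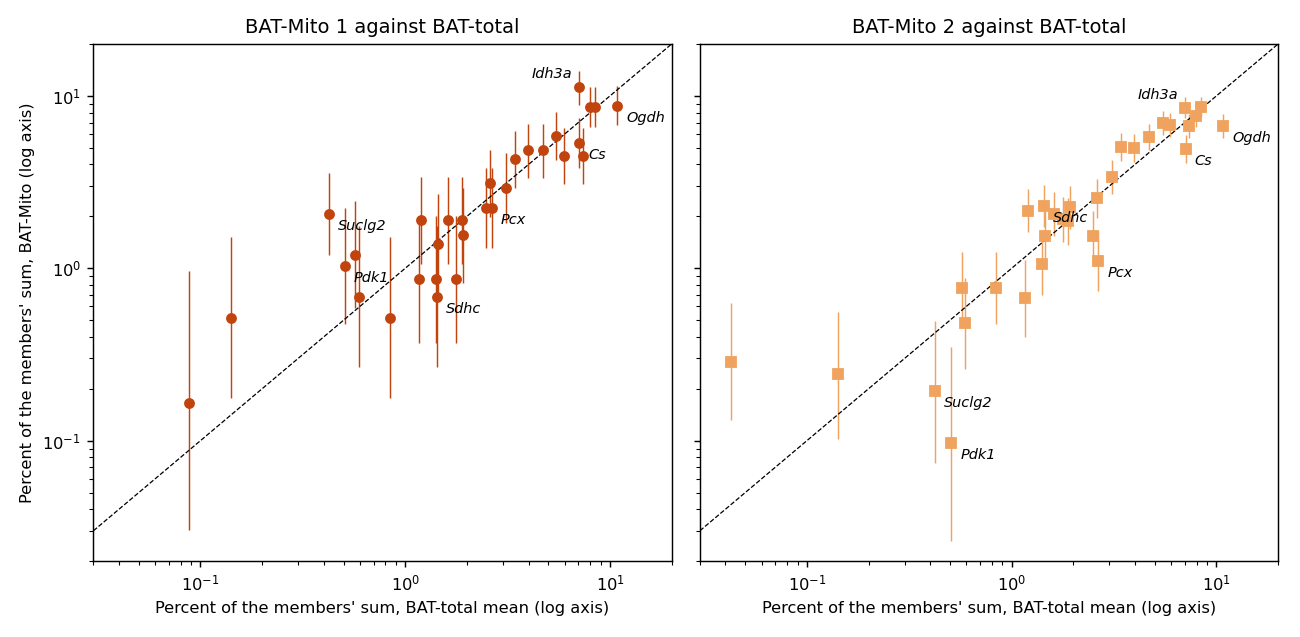
Share of each member in the members' sum (percent, log axes) in BAT-Mito replicate 1 (left) and replicate 2 (right) against the mean of BAT-total, with 95% Wilson intervals, members with 0 reads left out, and a dashed line of equality. Most members lie along the line, Idh3a lies above it and Ogdh and Cs below it in both panels, and Suclg2 and Pdk1 change sides.

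A wider list of 39 genes around the cycle, not members, had 36 genes in the table and 30 tested. Of these 0 were called higher and 0 lower (limma, adjusted p under 0.05), with 1 at an unadjusted p under 0.05, and 0 were called in either direction by edgeR or DESeq2. Their median log2 fold change was -1.17, equal to that of the members to 2 decimals in this fit. In some other fits the medians parted, with -0.94 for the wider list and -1.12 for the members at a pseudocount of 10. They were -0.60 and -0.34 without BAT-Mito replicate 1, and -1.65 and -1.94 without replicate 2. Dld, the lipoamide dehydrogenase that the PDH and 2-oxoglutarate dehydrogenase complexes share, was at 92 and 649 in BAT-Mito and at 695 and 596 in BAT-total. Its BAT-Mito replicate 2 lay far above replicate 1, as for most members. Pck1, which makes phosphoenolpyruvate from oxaloacetate, was at 1157 and 2353 against 4293 and 3605. Acly, which splits citrate in the cytosol, was at 308 and 1270 against 1007 and 2118, and Glul, glutamine synthetase, was at 491 and 994 against 1534 and 1317.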

How the data were processed

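The authors trimmed single-end reads, aligned them to the mouse genome GRCm38 with STAR, counted them per gene with featureCounts without reads of several positions or genes, and divided the counts by DESeq2 size factors. The submitters' processing notes name Trimmomatic 0.39, STAR 2.7.10a, featureCounts 2.0.2 and DESeq2 1.30.1. Fragmentation of mitochondrial RNA was timed by its size, so that preparation and group cannot be told apart. The deposited values are a signal, rounded normalised counts of 17259 genes in 4 libraries. Whole reads were recovered for 100.0% of the BAT-Mito values (within 0.51 units), 26288871 and 24910434 reads in all, and not for BAT-total, where the totals were 1590096 and 1905303 units. The limit for a count of 0 is 3 reads, 25.0 and 20.7 units.

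Genes with a mean of at least 10 were tested with limma 3.58.1 in R 4.3.3 on log2 of the value plus 1. This can understate the change of low genes, and it overstates a decrease where a BAT-Mito library is at 0, since 1 read there is worth several units. edgeR 4.0.16 and DESeq2 1.42.0 were run on reads, with BAT-total values taken as reads. Exon lengths are from GENCODE M21, in which 31 members had the coordinates of the table. Scripts were tested on simulated data. Samples were grouped by title. All members were described, and of the wider list genes called and the 5 highest in BAT-total were named, with the first gene of marker lists, and 1 item of the wider list is not reported here. The members and the lists were chosen with earlier results of these data known. Alternatives covered pseudocount, filter, scaling, tool, the replicate number as a block and leaving out each library.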

Additional observations from a re-analysis of the deposited data

How the results depend on the processing

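Under the alternatives, 0 members were called higher in any setting, and members called lower went from 0 to 1 when all genes with any count were tested and to between 0 and 28 when 1 library was left out (6 without BAT-Mito replicate 1, 28 without replicate 2, 0 without either BAT-total library). Of all genes, 20.8% were called lower in the first of these fits, 41.1% without BAT-Mito replicate 1 and 47.0% without replicate 2, while 0 of all genes were called in either direction without a BAT-total library, so that the 0 there says nothing of the members. Genes of the wider list called lower went from 0 to 2 with all genes and to between 0 and 18 with 1 library left out, and genes called higher to between 0 and 1, beside these shares of all genes called lower and 5.68% and 7.57% called higher without BAT-Mito replicates 1 and 2. The difference of the summed share was -2.33 percentage points with all genes outside the mitochondrial chromosome as denominator, most of whose signal in BAT-Mito is not protein-coding. It ran from -1.80 to 0.603 with 1 library left out. Its other alternatives kept its sign. The causes were not tested. Including all genes with any count raised the number tested to 17259, and with 1 BAT-Mito library left the spread between these libraries drops out.

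With the replicate number as a block, 0 members were called in either direction and the difference of the summed share was -0.597 percentage points. The samples share only a number (correlation of deviations 0.112 in the only pair of groups), and the block left 0 of all genes called, against 66 higher and 362 lower without it.

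Log2 fold changes of uncalled members changed sign as follows. By DESeq2 on reads, values were 0.027 for Fh1, 0.51 for Idh2, 0.096 for Idh3a, 0.017 for Idh3b, 0.20 for Mdh2, 2.06 for Pdp1, 0.35 for Pdp2, 0.081 for Sdhc and 0.41 for Suclg2. By edgeR on reads they were 0.40 for Idh2, 0.077 for Mdh2, 2.0 for Pdp1, 0.23 for Pdp2 and 0.20 for Suclg2. With equal totals they were 0.23 for Idh2, 0.012 for Pdp1, 0.21 for Pdp2 and 0.059 for Suclg2. With median ratios over nuclear protein-coding genes they were 0.30 for Idh2, 0.013 for Idh3a, 0.010 for Pdp1, 0.28 for Pdp2 and 0.13 for Suclg2. With a pseudocount of 10 Pdp1 was at 0.34. With 1 library left out, values ran from -3.13 to 2.26 for Pdp1, -0.11 to 0.48 for Got2, -1.29 to 0.45 for Idh2, -1.64 to 0.16 for Mdh2, -0.89 to 0.024 for Pdp2, -3.00 to 0.29 for Sdhc and -1.48 to 0.32 for Suclg2. The median log2 fold change was negative in all these settings for the members and for all genes alike, between -0.25 against -0.10 by DESeq2 and -1.94 against -1.05 without BAT-Mito replicate 2, and it was -0.34 against -0.92 without replicate 1. Reads behind BAT-total values are unknown, and 13 members had at most 10 reads in BAT-Mito replicate 1, which limits what can be detected there.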

Other observations

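A few genes of the wider list shared with Suclg2 and Pdk1 a lower value in BAT-Mito replicate 2 than in replicate 1, and were chosen here after their values had been seen. Glud1, glutamate dehydrogenase, stood at 225 and 83 in BAT-Mito and at 223 and 191 in BAT-total. The alanine aminotransferases Gpt and Gpt2 were each at 83 and 14 in BAT-Mito, against 62 and 49 for Gpt and 13 and 14 for Gpt2 in BAT-total. Pck2, the mitochondrial phosphoenolpyruvate carboxykinase, was at 33 and 7 against 5 and 15. These values rest on 27 or fewer reads in BAT-Mito. Liver markers were also higher in BAT-Mito replicate 1, and their part in these values was not tested.

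The following genes of the wider list were also chosen after their values had been seen. Nfs1, the cysteine desulfurase of iron-sulfur cluster assembly, was at 0 and 7 in BAT-Mito and at 48 and 45 in BAT-total, and had the lowest unadjusted p of the wider list (0.0375, limma adjusted p = 0.256). Lias, lipoic acid synthase, whose product the PDH and 2-oxoglutarate dehydrogenase complexes need, was at 0 and 14 against 44 and 44. Iscu, the scaffold of iron-sulfur clusters, was at 17 and 69 against 89 and 70, and Lipt1, a lipoyltransferase, was at 0 and 28 against 13 and 12. A count of 0 allows up to 25.0 units in BAT-Mito replicate 1, and these values rest on few reads.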
